A study of Mus musculus with 20 samples.

Results

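The comparison described here sets C2C12 cells on day 2 of differentiation (Day_2) against the same cells kept undifferentiated in growth medium (Undiff, day 0). C2C12 is an immortalised mouse myoblast line that leaves the cell cycle and fuses into multinucleate myotubes when serum is lowered. The members were all 20193 gene rows of the authors' time-course table, read in 4 of the 20 array samples of the series: 2 Day_2 arrays and 2 Undiff arrays, which the labels call biological replicates. Neither group was transfected. Day_2 cells had spent 2 days in low-glucose medium with 2% horse serum, and Undiff cells were in high-glucose medium with 20% FBS, so that time, serum and glucose differ together between the groups. The other samples were untransfected cells on day 1 (Day_1) and cells given 10 nM of an siRNA, either to the noncoding RNA Myolinc or a scramble control.

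In skeletal muscle, a myoblast that differentiates first induces the transcription factor myogenin, withdraws from the cell cycle, and then fuses with its neighbours and builds contractile fibrils. Basic helix-loop-helix factors of the MyoD family drive this course by binding E-boxes together with E proteins, and Id proteins hold it back by sequestering the E proteins. Genes of DNA replication are largely driven by E2F factors, and genes of mitosis by complexes that act through CCAAT and CHR elements in their promoters.

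Values are log2 expression levels of transcript clusters, each from its own probes, so that levels were compared between arrays and never between genes. Replicate arrays correlated across genes at 0.9987 for Day_2 and 0.9982 for Undiff. In a principal component analysis of the 12 time-course arrays, the first component (60.0% of the variance) placed Day_2 at -33.4 and -31.6 and Undiff at -48.0 and -46.3, away from all Day_1 and siMyolinc arrays, which lay between 9.8 and 26.6. The second component (16.6%) separated Day_2, at 26.9 and 29.4, from Undiff, at -18.3 and -22.2. The labels give no array or culture batch, so that a batch shared by a pair of arrays cannot be told apart from its group.

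A gene was called at a Benjamini-Hochberg adjusted p under 0.05 in limma, and such a p reflects the spread among replicate arrays, which may be partly technical. Day_2 cells differed from Undiff cells in 6043 of 20193 genes (29.9%), of which 2982 were higher (14.8% of all genes) and 3061 lower (15.2%). Most of these differences were small: 1802 called genes rose and 1944 fell by less than 0.5 log2, and 562 (2.78%) moved by at least 1 log2, 303 upward (1.50%) and 259 downward (1.28%). The largest differences were not symmetric, since 12 genes rose by over 3 log2 and 1, Id2, fell by that much. In a fit on the 4 arrays alone, 6266 genes were called. In bulk RNA, fewer cells of a kind and less of a transcript per cell cannot be told apart. Throughout, ± marks the standard error of a log2 difference, Day_2 minus Undiff.

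**Figure D1:**
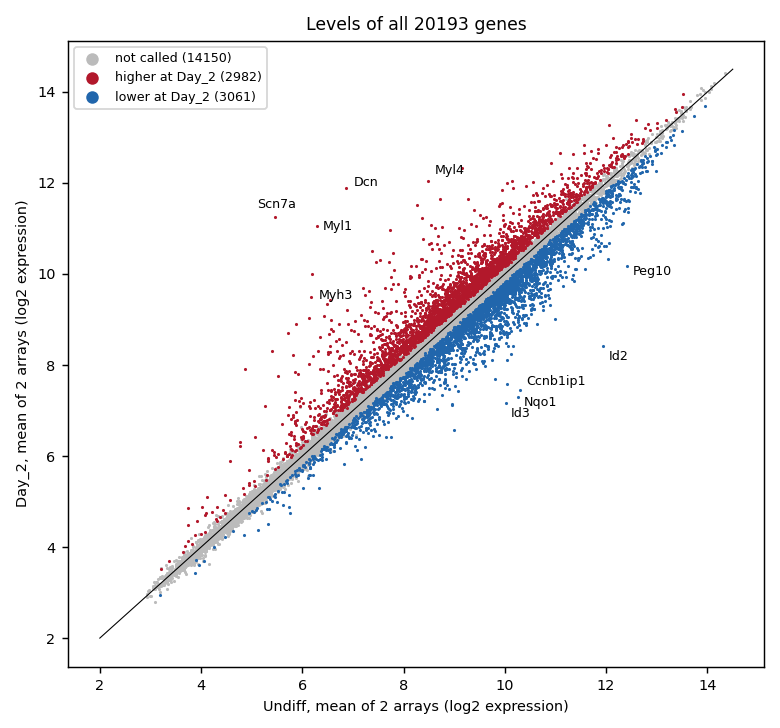
Mean log2 expression of each of 20193 genes in Undiff (horizontal) and Day_2 (vertical), with 2 arrays a group; red points were called higher at Day_2, blue points lower, grey points not called, and the line marks equal levels. The points farthest above the line include Scn7a, Dcn and Myl1, and the farthest below it is Id2.

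The factors that open the muscle programme moved unevenly. Myogenin, Myog, the regulator of terminal differentiation, read 8.44 and 8.57 log2 in Day_2 arrays, against 6.75 and 6.98 in Undiff arrays (difference 1.64 ± 0.10, adjusted p = 5.7e-07). All Day_2 arrays lay above all Undiff arrays for this gene, as they did for 5434 of all 20193 genes. Of 15 measured myogenic regulators 7 rose and 2 fell, with a median difference of 0.10, beside a median of -0.03 over all genes. The transcriptional coactivator Eya1 (1.02 ± 0.07) rose, as did the MADS-box factors Mef2a (0.87 ± 0.06) and Mef2d (0.51 ± 0.06). The factor Tead4 fell by 0.34 (± 0.07).

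Myod1, the founder factor of the lineage, read 9.64 and 9.60 log2 at Day_2, against 9.81 and 9.94 in Undiff. The difference was -0.25 ± 0.07 (limma, adjusted p = 0.0196). That call was lost without Day_2 replicate 1 (adjusted p = 0.0615), without Day_2 replicate 2 (adjusted p = 0.12) and without Undiff replicate 2 (adjusted p = 0.165). Six4 and Tead1, which were called higher by 0.27 and 0.19 log2, likewise lost their calls with 1 array left out. Six4 did so without Day_2 replicate 1 (adjusted p = 0.0564), Day_2 replicate 2 (adjusted p = 0.0917) and Undiff replicate 2 (adjusted p = 0.137), and Tead1 without any 1 of the 4 arrays (adjusted p = 0.0796 to 0.188). The determination factors Myf5 (-0.04) and Myf6 (0.04), the satellite cell factors Pax7 (0.04) and Pax3 (-0.11), Mef2c (0.10) and Eya4 (-0.07) were not called.

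Inhibitors of basic helix-loop-helix factors showed the largest fall of any gene. Id2 read 8.44 and 8.38 log2 in Day_2 arrays, against 11.91 and 11.98 in Undiff arrays, a fall of 3.54 (± 0.07, adjusted p = 1.1e-10). Id3 read 7.19 and 7.12 at Day_2, against 9.91 and 10.14 in Undiff (-2.86 ± 0.10). Each of these genes had 2 Day_2 arrays far below its 2 Undiff arrays, and 7263 of all 20193 genes had both Day_2 arrays below both Undiff arrays. Id1 fell less, by 0.82 (± 0.09), and Id4 differed by -0.17 and was not called, though it was without Undiff replicate 1 (-0.29, adjusted p = 0.0311). The Twist paralogues, repressors of myogenesis in mouse cells, did not move alike: Twist2 fell by 1.42 (± 0.06), while Twist1 differed by -0.01 and was not called. Among their partners, the E protein genes Tcf4 (0.62 ± 0.06) and Tcf12 (0.42 ± 0.06) rose. The zinc finger repressor genes Zeb1 (0.48 ± 0.06), Zeb2 (0.46 ± 0.07) and Snai2 (0.39 ± 0.06) rose and Snai1 fell by 0.71 (± 0.07). In all, 7 of 16 measured genes of this group rose and 6 fell.

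The contractile apparatus rose in part of its isoforms. Of 18 thin filament genes 14 rose and none fell, with a median difference of 0.94 log2. Cardiac alpha-actin, Actc1, the actin isoform of early muscle, read 12.30 and 12.34 log2 at Day_2, against 9.14 and 9.18 in Undiff (3.16 ± 0.09). Skeletal alpha-actin, Acta1, rose by 2.92 (± 0.10), slow troponin I, Tnni1, by 2.82 (± 0.11), and Tnnc1, slow and cardiac troponin C, by 2.14 (± 0.10). Among fast isoforms, Tnnt3 (1.83 ± 0.13), Tnnc2 (1.55 ± 0.09) and Tnni2 (0.71 ± 0.07) rose. The giant filament rulers nebulin, Neb (1.72 ± 0.08), and titin, Ttn (1.19 ± 0.10), and Lmod3, an actin nucleator of the thin filament (1.09 ± 0.08), were among the called genes. The thin filament genes not called were Tmod4, Tnni3, Tpm3 and Nebl, at 0.22 to -0.10 log2.

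Among 9 sarcomeric myosin heavy chains 2 were called. Myh3, the embryonic isoform, read 9.39 and 9.61 log2 at Day_2, against 6.23 and 6.10 in Undiff (3.34 ± 0.13). Myh1, an adult fast isoform, read 6.84 and 6.52 at Day_2, against 5.80 and 5.94 in Undiff (0.81 ± 0.12), a gene whose mean over the 12 arrays lay under the dim level of 6.67 log2, the 30th percentile of all genes. The other 7 heavy chains, among them the perinatal Myh8 (0.22, and called without Undiff replicate 2 at 0.34, adjusted p = 0.0404), the adult Myh4 (0.10) and Myh2 (-0.06) and the slow Myh7 (0.09), were not called. Of 9 striated light chain genes and their kinases 3 rose: Myl1, the fast alkali light chain, at 11.08 and 11.04 log2 in Day_2 arrays, against 6.33 and 6.25 in Undiff arrays (4.77 ± 0.08), the embryonic and atrial Myl4 (3.55 ± 0.07), and Mylpf, the fast regulatory light chain (1.62 ± 0.10). The ventricular chains Myl2 (-0.09) and Myl3 (-0.01) were not called.

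At the Z-disc and M-band 14 of 36 genes rose and 1 fell (2 without Undiff replicate 2), with a median of 0.12 log2. Myom2, a protein of the M-band, rose by 1.92 (± 0.07), the calcineurin-binding Myoz2 by 1.90 (± 0.09), and Kbtbd10, an older symbol of the Kelch protein gene Klhl41, by 1.45 (± 0.12). Xirp1, an actin-binding protein of cell junctions in muscle, fell by 0.33 (± 0.05). The creatine kinase of muscle, Ckm, a late marker, differed by -0.02 ± 0.08 and was not called. Myoz2 is among the dim genes.

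**Figure D2:**
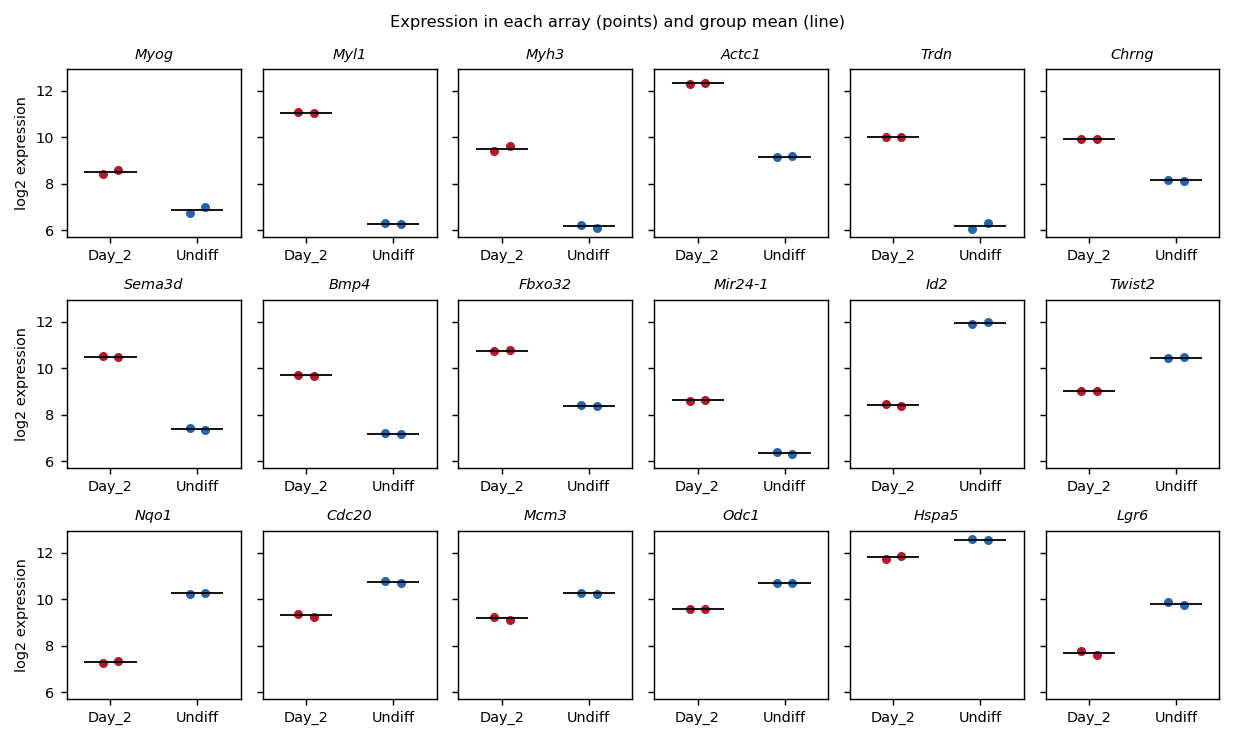
Log2 expression of 18 genes in each of the 2 Day_2 arrays (red, left) and 2 Undiff arrays (blue, right), with a line at each group's mean. The 18 genes were chosen among called genes, and in none of them do the groups overlap. Of all 20193 genes, the groups likewise did not overlap in 5434 that were higher at Day_2 and 7263 that were lower. Replicate arrays of the 18 genes lie close together beside the distance between groups.

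The machinery that couples membrane excitation to contraction was higher at Day_2. Of 23 genes of the sarcoplasmic reticulum and its couplings 13 rose and 2 fell (median 0.42), and 1 fell without Day_2 replicate 1, Day_2 replicate 2 or Undiff replicate 2. Triadin, Trdn, which ties calsequestrin to the calcium release channel, read 10.00 and 10.00 log2 at Day_2, against 6.05 and 6.33 in Undiff (3.81 ± 0.23). The cardiac calsequestrin Casq2 rose by 2.66 (± 0.09), Srl, sarcalumenin, by 1.63 (± 0.09), the fast calcium pump Atp2a1 by 1.44 (± 0.08) and the release channel Ryr3 by 1.04 (± 0.07). The broadly expressed pump Atp2a2 fell by 0.36 (± 0.06).

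Acetylcholine receptor subunits of the fetal type rose. The gamma subunit Chrng read 9.93 and 9.94 log2 in Day_2 arrays, against 8.17 and 8.12 in Undiff arrays (1.79 ± 0.07), and the delta subunit Chrnd rose by 1.82 (± 0.07). The adult-type epsilon subunit Chrne differed by -0.08 ± 0.08 and was not called. Lrp4, the muscle receptor of nerve agrin, rose by 2.00 (± 0.07) and the clustering protein Rapsn by 0.71 (± 0.08), while the kinase Musk (0.03) and its adaptor Dok7 (0.02) were not called. Altogether 7 of 13 junction genes rose and none fell. In the dystrophin complex and membrane repair group 10 of 20 rose and 3 fell, led by dystrobrevin, Dtna (0.84 ± 0.07), and the repair protein Trim72 (0.73 ± 0.08), with delta-sarcoglycan, Sgcd, lower by 1.00 (± 0.08).

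Fusion genes stood apart from one another. Tmem8c, the symbol used here for the fusion protein myomaker, read 11.53 and 11.49 log2 at Day_2, against 8.35 and 8.16 in Undiff (3.25 ± 0.09). The potassium channel Kcnj2, which hyperpolarises myoblasts before fusion, rose by 0.90 (± 0.17), Ncam1 by 0.39 (± 0.06) and N-cadherin, Cdh2, by 0.32 (± 0.06). The adhesion molecule Jam2 (-0.60 ± 0.07), the membrane trafficking protein Ehd1 (-0.66 ± 0.06) and the metalloprotease Adam12 (-0.74 ± 0.08) fell. M-cadherin, Cdh15 (-0.04), myoferlin, Myof (0.03), and Cav3 (-0.10) were not called. Of 25 genes in the group 9 rose and 3 fell, and without Day_2 replicate 2 the number that rose was 5. The sheet's Gm7325, myomixer, a partner of myomaker in fusion, was called at 0.38 ± 0.10, and not without Undiff replicate 1 (0.28, adjusted p = 0.1) or Day_2 replicate 2 (0.36, adjusted p = 0.0642).

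The sheet also names 305 transcript clusters after microRNA genes. MicroRNAs are short RNAs that repress messenger RNAs matching their seed, bases 2 to 8 of the mature strand. These clusters report RNA labelled from total RNA, so the mature strands were not measured as such. Of the 305, 48 were called higher (15.7%, near the 14.8% of all genes) and 6 lower (1.97%, beside 15.2%), with a median of 0.02 log2, and 177 were dim. Leaving out 1 array left 33 to 42 called higher and 2 called lower. Most of the rises described next lay on neighbouring hairpins, which are often cut from the same primary transcript. The mature strands below are those of the pairs described next, shown so that their seeds, in capitals, can be compared (the miR-181, miR-99 and let-7 strands share theirs within the family), from RefSeq (GRCm38.p6), where 261 of the 305 names matched a hairpin.
miR-27b-3p: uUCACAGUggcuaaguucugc
miR-24-3p: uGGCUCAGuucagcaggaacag
miR-181a-5p: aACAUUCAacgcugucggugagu
miR-181b-5p: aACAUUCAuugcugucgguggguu
miR-206-3p: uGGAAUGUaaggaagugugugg
miR-133b-3p: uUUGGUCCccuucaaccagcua
miR-322-5p: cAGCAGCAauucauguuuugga
miR-503-5p: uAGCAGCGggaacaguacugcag
miR-99a-5p: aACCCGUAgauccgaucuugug
miR-100-5p: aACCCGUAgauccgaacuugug
let-7d-5p: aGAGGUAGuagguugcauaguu
let-7f-5p: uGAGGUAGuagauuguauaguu

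The hairpins Mir23b (chr13:63300484-63300557), Mir27b (chr13:63300712-63300784) and Mir24-1 (chr13:63301208-63301275) lie in a row on the forward strand. Mir24-1 read 8.61 and 8.63 log2 in Day_2 arrays, against 6.41 and 6.30 in Undiff arrays (2.26 ± 0.08, adjusted p = 1.25e-08). Mir27b rose by 2.14 (± 0.11) and Mir23b by 1.78 (± 0.07). All 3 clusters were higher in every Day_2 array than in any Undiff array, as were 5434 of all 20193 genes. The product of Mir27b is known in mouse muscle precursors to repress Pax3, whose own cluster was not called. The paralogous hairpin Mir24-2, which encodes the same mature miR-24-3p elsewhere in the genome, differed by 0.02 ± 0.09 and was not called.

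Mir181b-1 (chr1:137966639-137966718) read 8.95 and 9.10 log2 at Day_2, against 5.88 and 6.37 in Undiff (2.90 ± 0.20), and its neighbour Mir181a-1 (chr1:137966455-137966541), a dim cluster, rose by 1.32 (± 0.12). Their mature strands share the seed ACAUUCA. The muscle-enriched pair Mir206 (0.98 ± 0.15, dim) and Mir133b (0.54 ± 0.09) rose together, on chr1:20679010-20679082 and chr1:20682769-20682887. Of 13 clusters listed as muscle microRNAs 4 rose (30.8%, beside 14.8% of all genes), none fell and 9 were not called. That list is not limited to clusters like this pair, since its largest rise is that of Mir27b, described above. Mir133a-1, Mir133a-2, Mir1-1 and Mir499 were not called. Mir1-2, a dim cluster outside that list, was called higher by less than 0.5 log2, and its call with 1 array left out is not given here. Mir322 (1.36 ± 0.12, dim) and Mir503 (0.73 ± 0.09), neighbours on the X chromosome whose seeds AGCAGCA and AGCAGCG differ in their last base, rose as well. In C2C12 cells these microRNAs are known to repress Cdc25a and to favour cell cycle arrest. The dim hairpins Mir450-1, Mir450-2 and Mir450b, near Mir503 on the same strand, were not called.

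Hairpins of the miR-99 and let-7 families rose in part. Mir99a rose by 1.00 (± 0.09) and Mir100, dim and with the same seed ACCCGUA, by 0.68 (± 0.10). Mirlet7a-2, dim and beside Mir100 on chromosome 9, rose by 0.53 (± 0.06), and Mirlet7d by 0.55 (± 0.10). Mirlet7f-1, dim, was called at 0.62 ± 0.14 and lost that call without Day_2 replicate 2 (0.54, adjusted p = 0.0508), and Mirlet7c-1, also dim and called at 0.76 ± 0.24, was not called without any 1 of the 4 arrays (adjusted p = 0.0624 to 0.203). Mirlet7c-2 was called at 0.28 ± 0.08 and not without Day_2 replicate 1 (adjusted p = 0.0677), Day_2 replicate 2 (adjusted p = 0.134) or Undiff replicate 1 (adjusted p = 0.163). The other family members were not called: Mirlet7a-1 (0.25), Mirlet7g (0.15), Mirlet7e (0.10), Mirlet7f-2 (0.07), Mirlet7b (0.05), Mirlet7i (-0.05), Mir98 (-0.09) and Mir99b (-0.03). Other hairpins that rose were Mir491 (1.88 ± 0.11, dim) and Mir218-1 (1.56 ± 0.09), and the neighbours Mir532 (0.85 ± 0.11), Mir362 (0.75 ± 0.14) and Mir501 (0.69 ± 0.14). Mir188, which lies between Mir362 and Mir532 on the same strand, was not called.

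**Figure D3:**
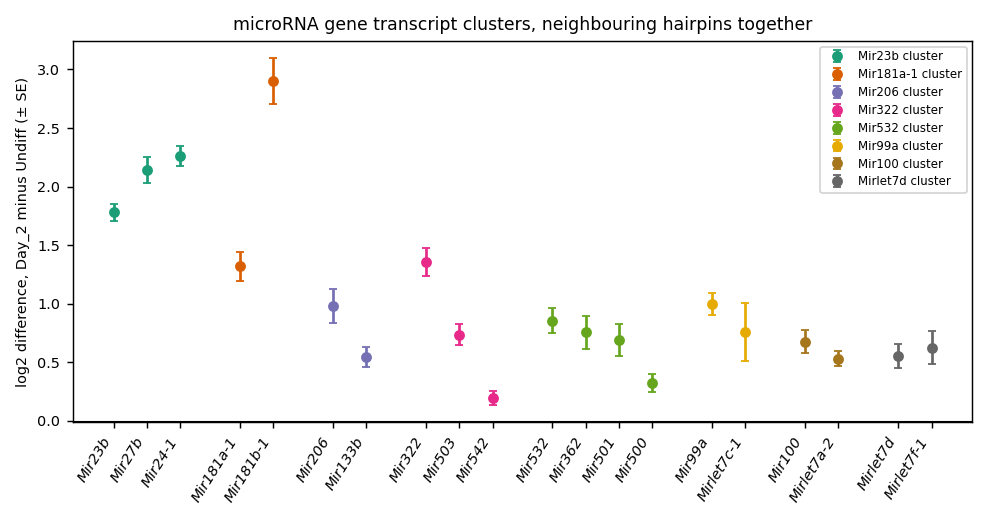
Log2 difference, Day_2 minus Undiff, of 20 microRNA gene transcript clusters, grouped by neighbouring hairpins; points are limma estimates from 2 arrays a group and bars their standard errors. All 20 were chosen among clusters called higher, so that all lie above 0. The highest are Mir181b-1 at 2.90 and the Mir23b group at 1.78 to 2.26. Neighbouring hairpins that were not called are not drawn, among them Mir188, Mir450-1, Mir450-2, Mir450b and Mirlet7a-1.

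Secreted guidance cues were among the largest rises. Sema3d, a class 3 semaphorin, read 10.52 and 10.48 log2 in Day_2 arrays, against 7.42 and 7.34 in Undiff arrays (3.12 ± 0.10). Slit2, the ligand of Robo receptors, rose by 2.54 (± 0.07), and Sema3c (1.63 ± 0.09) and Sema3e (1.54 ± 0.07) rose too. Among membrane partners, ephrin-B2, Efnb2 (1.32 ± 0.07), Sema5a (1.09 ± 0.05), the Eph receptor Epha7 (1.05 ± 0.07) and the plexin Plxna2 (0.94 ± 0.07) rose. The netrin receptor Unc5b (-0.91 ± 0.06), Sema7a (-0.86 ± 0.10), Ephb2 (-0.72 ± 0.08) and Epha2 (-0.70 ± 0.06) fell. In this group of 53 genes 25 rose and 8 fell, with a median of 0.13 log2.

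Growth factor pathways showed single large members, and their called genes moved in both directions. Bmp4, a bone morphogenetic protein, read 9.73 and 9.66 log2 at Day_2, against 7.19 and 7.19 in Undiff (2.50 ± 0.07). The BMP antagonist Grem1 fell by 1.08 (± 0.08), and Smad9 (-0.72 ± 0.08), the inhibitory Smad7 (-0.52 ± 0.07) and Ltbp1 (-0.83 ± 0.06), which binds latent TGF-beta, fell as well. Of 40 genes of this pathway 11 rose (27.5%) and 10 fell (25%), beside 14.8% and 15.2% of all genes, or 6 fell without Day_2 replicate 2. In the WNT pathway 8 of 53 rose (15.1%) and 6 fell (11.3%), near the shares over all genes, and the R-spondin receptor Lgr6 read 7.76 and 7.61 log2 at Day_2, against 9.86 and 9.74 in Undiff (-2.11 ± 0.14), with its relative Lgr4 lower by 1.17 (± 0.08).

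The FGF ligand Fgf7 fell by 1.98 (± 0.09), while the feedback inhibitor Spry2 rose by 1.25 (± 0.08). Of 27 FGF pathway genes 6 rose (22.2%) and 3 fell (11.1%), beside 14.8% and 15.2% of all genes, and 18 were not called. Of the IGF axis and the imprinted growth network, 11 of 30 genes rose (36.7%) and 5 fell (16.7%), beside 14.8% and 15.2% of all genes. Fewer fell without Day_2 replicate 1, Day_2 replicate 2 or Undiff replicate 1. Among the rises were Igf1 (0.70 ± 0.07), Igf2 (0.59 ± 0.09), both receptors Igf1r (0.67 ± 0.07) and Igf2r (0.88 ± 0.07), and the adaptor Irs1 (0.82 ± 0.08). The imprinted retrotransposon-derived gene Peg10 read 10.20 and 10.17 log2 at Day_2, against 12.40 and 12.43 in Undiff (-2.23 ± 0.07), and the paternally expressed Peg3 rose by 1.14 (± 0.09). H19 differed by -0.21 ± 0.10 and was not called. Growth hormone receptor, Ghr, rose by 2.77 (± 0.07).

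Notch genes split between ligands, receptors and targets. The ubiquitin ligase Dtx4 rose by 1.78 (± 0.06), the ligands Dll1 and Jag1 by 0.78 (± 0.09) and 0.63 (± 0.07), and the receptors Notch3 and Notch2 by 0.74 (± 0.09) and 0.48 (± 0.06). Notch1 fell by 0.46 (± 0.09), and its glycosyltransferase Lfng (-1.13 ± 0.07) and the target Hey1 (-0.67 ± 0.08) fell too, while the target Hes1 differed by -0.18 and was not called. Of 21 genes 8 rose and 5 fell.

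Outside the cell, remodelling enzymes and decorin showed large rises. Decorin, Dcn, a proteoglycan that coats collagen fibrils, read 11.82 and 11.96 log2 in Day_2 arrays, against 6.83 and 6.89 in Undiff arrays (5.03 ± 0.08). The aggrecanases Adamts5 (1.90 ± 0.06) and Adamts4 (1.86 ± 0.07) and the gelatinase Mmp2 (1.46 ± 0.07) rose, whereas the inhibitors Timp3 (-1.29 ± 0.08) and Timp1 (-0.54 ± 0.07) and the urokinase receptor Plaur (-1.21 ± 0.07) fell. Of 48 proteases and inhibitors 19 rose (39.6%, beside 14.8% of all genes) and 8 fell (16.7%, near the 15.2% of all genes). Of 33 collagen chains, 12.1% each way beside 14.8% and 15.2% of all genes, 4 rose, led by Col3a1 (0.92 ± 0.08), and 4 fell, among them Col1a2 (-0.48 ± 0.07). Without Undiff replicate 1, 2 collagen chains fell. Mgp, matrix Gla protein, rose by 2.68 (± 0.08).

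Chemokine and cytokine genes moved both ways. Cxcl12 (1.42 ± 0.10) and the interleukin 1 receptor Il1r1 (1.24 ± 0.09) rose, as did Lifr (0.85 ± 0.09) and Osmr (0.74 ± 0.09), receptors of the interleukin 6 family. The monocyte attractants Ccl7 (-1.44 ± 0.15) and Ccl2 (-0.99 ± 0.15), the death receptor Tnfrsf21 (-1.23 ± 0.08) and Csf1 (-0.72 ± 0.06) fell. Of 50 genes 9 rose and 14 fell, and 8 fell without Day_2 replicate 1 and 9 without Undiff replicate 1.

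Every measured gene of 2 lists fell. Of 64 genes of mitosis and cytokinesis 64 were called lower, with a median of -1.17 log2, and of 45 genes of DNA replication and nucleotide supply 45 were called lower, with a median of -0.94. Cdc20, an activator of the anaphase-promoting complex, read 9.38 and 9.22 log2 at Day_2, against 10.77 and 10.72 in Undiff (-1.44 ± 0.11). The kinase Aurka (-1.58 ± 0.12), the centromere histone Cenpa (-1.49 ± 0.07) and the kinesin Kif4 (-1.53 ± 0.15) fell. Thymidine kinase, Tk1, read 8.98 and 8.85 log2 in Day_2 arrays, against 10.39 and 10.46 in Undiff arrays (-1.51 ± 0.08). The replication helicase subunits Mcm5 (-1.37 ± 0.07) and Mcm3 (-1.09 ± 0.09) and the origin protein Orc1 (-1.42 ± 0.07) fell. The smallest falls were those of Kif14 (-0.20), a dim cluster, and Gins4 (-0.46). Leaving out any 1 array left 63 mitosis genes and 44 replication genes called. Without any 1 of the 4 arrays, the calls of Kif14 (adjusted p = 0.0647 to 0.142) and of the replication clamp Pcna (-0.61 ± 0.17 on all arrays, adjusted p = 0.0601 to 0.0783) were lost.

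Of 39 cyclins, kinases and E2F-related genes 25 fell and 6 rose. The falls included the transcription factor Mybl2 (-1.74 ± 0.10), the phosphatase Cdc25c (-1.81 ± 0.18), and cyclins of each phase: Ccnd1 (-1.35 ± 0.10), Ccne1 (-1.30 ± 0.09) and Ccnb1 (-1.38 ± 0.09). The Myc antagonist Mxd4 (1.28 ± 0.07) and cyclin G2, Ccng2 (1.08 ± 0.06), known for high levels in arrested cells, rose, and Myc differed by 0.15 ± 0.14 and was not called. In a group of 25 genes tied to cell cycle exit 11 rose and 4 fell. Gadd45a averaged 10.09 log2 at Day_2, against 7.81 in Undiff (2.28 ± 0.11), while its paralogues Gadd45b (-0.60 ± 0.07) and Gadd45g (-0.62 ± 0.06) fell. The kinase inhibitor Cdkn1b (0.65 ± 0.07) and the pocket proteins Rb1 (0.64 ± 0.08) and Rbl2 (0.56 ± 0.07) rose. Of 45 histone genes 31 fell and 3 rose, with Hist1h1a lower by 1.41 (± 0.07).

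The promoters of these genes can be read beside their changes. Windows from 250 bases before to 50 after the annotated start were available for 14954 measured genes (RefSeq, GRCm38.p6), 1 window a gene. Motifs were searched on both strands. CCAAT stood in 58% of the 200 windows of the called genes with the largest falls and in 41% of those with the largest rises, beside 38.3% of all windows. The CHR element TTTGAA stood in 33% of the first set, 13% of the second and 15.2% of all, and an E2F site, TTCCCGC or TTGGCGC, in 21%, 4.5% and 9.44%. The E-box CAGCTG stood in 13% of windows of the largest falls, 24.5% of the largest rises and 15.8% of all. At least 2 CANNTG matches, which include any CAGCTG, stood in 28%, 43% and 34%. The MEF2 motif was in 2%, 6% and 2.7% of windows, the CArG box in 1.5%, 2% and 1.45%, and the TEAD motif GGAATG in 10.5%, 16% and 13.2%. Mean GC content was 59.4%, 57.6% and 56.9% in the same order. These shares describe letters in the windows and no binding was measured.

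Within the lists, 62.1% of 58 mitosis windows held a CCAAT, 62.1% a CHR element and 25.9% an E2F site. Of 38 replication windows, 65.8% held a CCAAT, 13.2% a CHR element and 50% an E2F site. Of 14 thin filament windows, 42.9% held CAGCTG. The next 4 windows are given as examples of genes described above, with matches in capitals: Cdc20 (chr4:118437294-118437593, reverse strand) with 2 CCAAT matches around 1 CHR match, Mcm3 (chr1:20820263-20820562, reverse strand) with 3 E2F matches, of which a pair overlaps on opposite strands, Actc1 (chr2:114052826-114053125, reverse strand) with 1 CArG box, and Myog (chr1:134289754-134290053, forward strand) with 2 CANNTG matches. Only the motif named for each window is capitalised in it.
Cdc20: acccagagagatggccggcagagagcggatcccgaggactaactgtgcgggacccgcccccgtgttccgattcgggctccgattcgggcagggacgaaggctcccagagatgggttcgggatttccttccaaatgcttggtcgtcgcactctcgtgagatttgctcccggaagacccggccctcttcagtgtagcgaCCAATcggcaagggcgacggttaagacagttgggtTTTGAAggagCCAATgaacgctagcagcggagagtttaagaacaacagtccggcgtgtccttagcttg
Mcm3: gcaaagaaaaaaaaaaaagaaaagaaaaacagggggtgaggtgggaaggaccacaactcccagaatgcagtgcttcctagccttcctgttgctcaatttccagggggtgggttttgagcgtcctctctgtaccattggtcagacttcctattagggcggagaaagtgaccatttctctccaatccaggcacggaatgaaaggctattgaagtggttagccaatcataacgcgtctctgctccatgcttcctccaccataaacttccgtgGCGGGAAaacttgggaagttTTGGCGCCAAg
Actc1: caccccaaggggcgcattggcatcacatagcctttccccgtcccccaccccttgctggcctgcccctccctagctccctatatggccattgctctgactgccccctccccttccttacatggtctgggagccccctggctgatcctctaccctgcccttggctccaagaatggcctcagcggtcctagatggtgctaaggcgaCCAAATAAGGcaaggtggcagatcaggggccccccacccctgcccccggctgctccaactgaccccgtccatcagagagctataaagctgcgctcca
Myog: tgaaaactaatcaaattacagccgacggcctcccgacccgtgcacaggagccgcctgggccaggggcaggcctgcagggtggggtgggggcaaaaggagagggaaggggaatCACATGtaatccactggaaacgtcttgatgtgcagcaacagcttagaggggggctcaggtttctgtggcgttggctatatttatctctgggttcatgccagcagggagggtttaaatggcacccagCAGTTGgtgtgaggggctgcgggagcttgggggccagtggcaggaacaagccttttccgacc

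Genes that build ribosomes fell, and genes of the cytosolic ribosome itself mostly were not called. Of 56 ribosome biogenesis genes 46 fell and 1 rose, Imp3 (0.31 ± 0.06), with a median of -0.56 log2. The list is wider than its name, since its lowest member was ornithine decarboxylase, Odc1, which starts polyamine synthesis. Odc1 read 9.58 and 9.60 log2 in Day_2 arrays, against 10.71 and 10.72 in Undiff arrays (-1.13 ± 0.06). The pseudouridine synthase Dkc1 (-1.08 ± 0.07), spermidine synthase, Srm (-0.97 ± 0.08), and the box C/D protein Nop56 (-0.81 ± 0.06) fell. Of 65 cytosolic ribosomal protein genes 10 fell (15.4%, near the 15.2% of all genes), with a median of -0.02, and 5 fell without Undiff replicate 1 and 6 without Day_2 replicate 1. Of 70 mitochondrial ribosomal protein genes 39 fell (median -0.25), and 24 fell without Undiff replicate 1 and 25 without Day_2 replicate 1. The lowest of these was Mrpl18 at -0.79 (± 0.07). The 1 gene that rose in each of these lists, Rpl22 (0.27) and Mrpl23 (0.28), was not called without Day_2 replicate 2 or without Undiff replicate 2, and Rpl22 also not without Day_2 replicate 1.

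Other parts of protein synthesis and turnover were lower as well. Of 18 transfer RNA synthetases 13 fell and none rose, with Vars at -0.59 (± 0.06) and Hars at -0.56 (± 0.06). Of 38 proteasome subunits 27 fell, with a median of -0.39; Psmc5 (-0.70 ± 0.07) and Psmd12 (-0.69 ± 0.06), subunits of the regulatory particle, were the lowest. The 1 proteasome gene that rose was Psmb10 (0.51 ± 0.06), a subunit of the immunoproteasome. Of 28 heat shock and co-chaperone genes 13 fell and none rose (1 rose without Undiff replicate 1), and the falls include the small heat shock protein Hspb6 (-1.26 ± 0.09) and Hspd1, the mitochondrial chaperonin (-0.79 ± 0.10).

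Of 41 genes of chaperones and secretory machinery of the endoplasmic reticulum 24 fell and 7 rose. Hspa5, the chaperone BiP, read 11.73 and 11.87 log2 at Day_2, against 12.60 and 12.54 in Undiff (-0.77 ± 0.06). The co-chaperone Sdf2l1 (-1.10 ± 0.10), Pdia6, a disulphide isomerase (-1.08 ± 0.06), and Hsp90b1 (-0.85 ± 0.05) fell. Day_1 lay outside this range, with mean levels of Hspa5 of 12.57 log2 in Undiff, 13.72 at Day_1 and 11.80 at Day_2, and of Sdf2l1 of 10.84, 13.04 and 9.74 in the same order. The Day_1 arrays also lay apart from both groups on the first principal component, and what part that has in these levels was not tested. The sensor Atf6 rose by 0.63 (± 0.07). Several serine and one-carbon enzymes fell, with Phgdh at -0.79 (± 0.07), Mthfd1 at -0.85 (± 0.06) and the branched-chain transaminase Bcat1 at -1.11 (± 0.06). The stress factor Atf3 (1.22 ± 0.08) and the transsulphuration enzyme Cth (1.16 ± 0.08) rose. Of that group of 26 genes 8 rose and 11 fell.

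Antioxidant genes known as targets of the transcription factor NRF2 were lower. The quinone reductase Nqo1 read 7.24 and 7.36 log2 in Day_2 arrays, against 10.24 and 10.26 in Undiff arrays (-2.95 ± 0.09, adjusted p = 4.4e-09). Both subunits of the rate-limiting enzyme of glutathione synthesis fell, Gclm (-1.52 ± 0.06) and Gclc (-1.27 ± 0.06). Sulfiredoxin, Srxn1 (-1.38 ± 0.06), the haem oxygenase Hmox1 (-1.02 ± 0.06), and the pentose phosphate enzymes G6pdx (-1.21 ± 0.06) and Pgd (-1.05 ± 0.08) fell too. Of 50 genes in the group 27 fell and 6 rose. The metallothioneins Mt1 (0.99 ± 0.07) and Mt2 (0.79 ± 0.07) were among those that rose.

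Energy metabolism of muscle did not move as a block. The coactivator Ppargc1a rose by 1.50 (± 0.18), the muscle cytochrome oxidase subunits Cox8b and Cox6a2 by 1.36 (± 0.12) and 0.94 (± 0.11), and glycogen phosphorylase, Pygm, by 0.61 (± 0.07). Several glycolytic enzymes fell: Ldha (-0.51 ± 0.06), Pkm2 (-0.45 ± 0.06), Tpi1 (-0.42 ± 0.06) and the muscle enolase Eno3 (-0.72 ± 0.06). Pdk4, the kinase that turns off pyruvate dehydrogenase, fell by 1.11 (± 0.07). In all, 6 of 34 genes rose and 9 fell. Of 80 subunits of the respiratory chain 15 rose and 11 fell, near the shares over all genes, and leaving out Day_2 replicate 1, Day_2 replicate 2 or Undiff replicate 2 left 8, 7 and 7 that rose and 6, 6 and 5 that fell.

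Genes of autophagy and of FOXO-driven atrophy rose in 24 of 38 cases and fell in 3, or in 1 without Day_2 replicate 2, with a median of 0.31 log2. The muscle ubiquitin ligase Fbxo32, atrogin-1, read 10.73 and 10.79 log2 at Day_2, against 8.40 and 8.38 in Undiff (2.37 ± 0.08). The autophagosome proteins Map1lc3a (1.61 ± 0.07), Gabarapl1 (1.10 ± 0.07) and Map1lc3b (0.86 ± 0.06), the kinase complex subunit Atg14 (0.96 ± 0.12) and the lysosomal Ctsd (0.80 ± 0.07) and Lamp2 (0.75 ± 0.06) rose. The sestrins Sesn1 (1.38 ± 0.09) and Sesn3 (0.98 ± 0.08), which hold back mTORC1, rose, and Depdc6, the older symbol of the mTOR inhibitor Deptor, fell by 0.42 (± 0.06). Among apoptosis genes, Casp12 (1.93 ± 0.13), Bmf (0.97 ± 0.08) and Bcl2l11 (0.88 ± 0.06) rose and the effectors Bak1 (-0.60 ± 0.06) and Bax (-0.54 ± 0.07) fell.

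Interferon-induced genes rose in 27 of 55 cases, with a median of 0.21 log2, and fell in 2, or in 1 without Day_2 replicate 1, Day_2 replicate 2 or Undiff replicate 1. Ifit3 read 8.62 and 8.80 log2 at Day_2, against 5.65 and 5.77 in Undiff (3.00 ± 0.17). Ifit1 (1.73 ± 0.11), Lgals3bp (1.69 ± 0.09), Samd9l (1.35 ± 0.11) and the RNA sensor Ddx58 (0.90 ± 0.08) rose. In antigen presentation, 7 of 24 genes rose and none fell, with Tapbp (0.68 ± 0.08), Erap1 (0.62 ± 0.07) and B2m (0.50 ± 0.06), while the transporter Tap1 (-0.07) was not called.

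**Figure D4:**
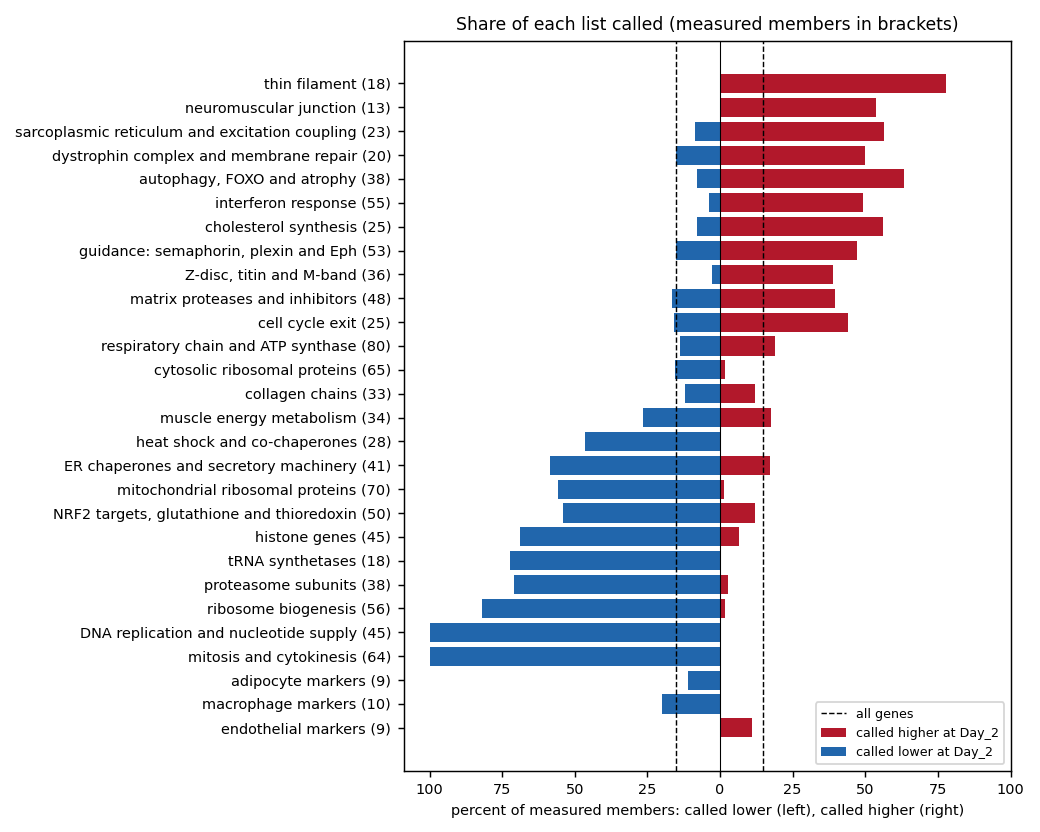
Percent of the measured members of 28 gene lists that were called higher at Day_2 (red, right) or lower (blue, left), with 2 arrays a group; dashed lines mark the shares over all genes, 14.8% higher and 15.2% lower. The mitosis and replication lists reach 100% lower, and the thin filament list 77.8% higher.

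**Figure D5:**
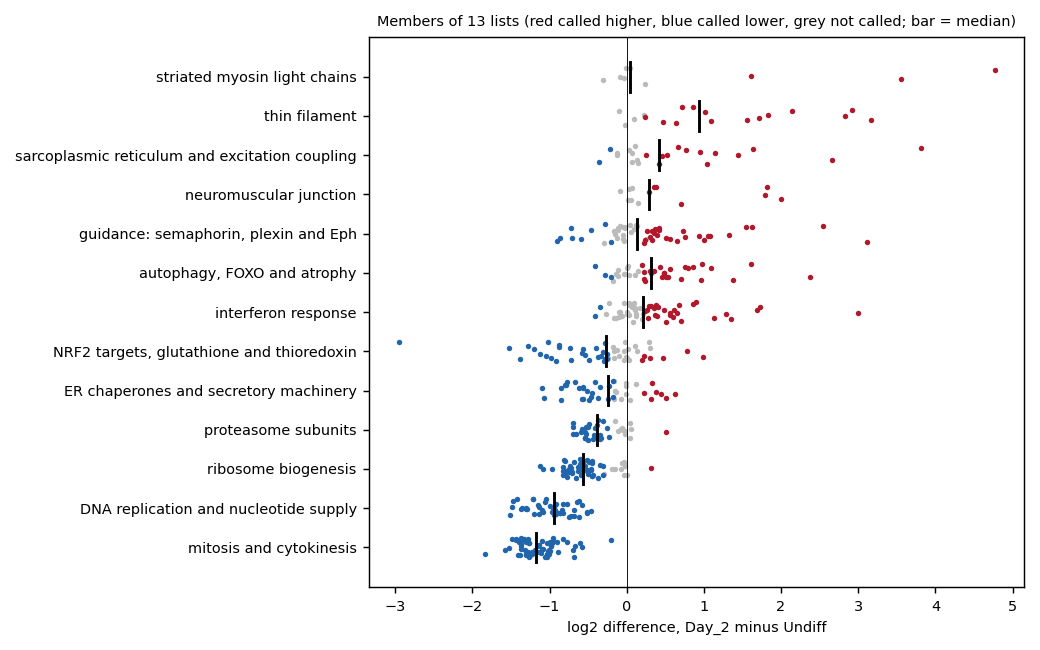
Log2 difference, Day_2 minus Undiff, of every measured member of 13 lists (red called higher, blue called lower, grey not called), with a bar at each list's median. The muscle lists spread to the right with single members above 3, whereas mitosis and replication genes lie together left of 0 around medians of -1.17 and -0.94.

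Other genes with large differences belong to none of these groups. Scn7a, a sodium channel of atypical gating, had the largest rise of all, with 11.26 and 11.24 log2 at Day_2, against 5.53 and 5.37 in Undiff (5.80 ± 0.17). The scavenger receptor gene Colec12 (2.86 ± 0.09), the regulator of G protein signalling Rgs2 (2.85 ± 0.10), the cobalamin carrier Tcn2 (2.39 ± 0.07), ceruloplasmin, Cp (2.27 ± 0.13), and the GDNF co-receptor Gfra1 (2.36 ± 0.06) rose. Ccnb1ip1 (-2.84 ± 0.09), a ubiquitin ligase gene needed in meiosis, the water channel Aqp1 (-2.45 ± 0.08) and keratin 14, Krt14 (-2.42 ± 0.08), fell. For the carbonic anhydrase Car6, the mean levels were 5.81 log2 in Undiff, 12.27 at Day_1 and 8.22 at Day_2, so that the difference of 2.41 ± 0.13 at Day_2 was smaller than the distance of Day_1 from either. Here too, what part the place of the Day_1 arrays on the first principal component has was not tested. Filip1, a filamin-binding protein, was called at 0.39 ± 0.09 (adjusted p = 0.0062), a dim cluster that lost the call without Undiff replicate 1 (0.30, adjusted p = 0.0666) and without Day_2 replicate 2 (0.37, adjusted p = 0.0503).

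Markers of cells that a C2C12 culture could hold were read for the label. Desmin, Des, of the myoblast lineage was at 12.54 and 12.48 log2 in Day_2 arrays and at 12.18 and 12.20 in Undiff arrays, a difference called with all arrays (adjusted p = 0.0117) and not without Day_2 replicate 1 (adjusted p = 0.0805) or Undiff replicate 1 (adjusted p = 0.0618), and Itga7, the laminin receptor of muscle, rose by 0.79 (± 0.07). Of 9 adipocyte markers none rose, and Pparg fell by 1.05 (± 0.06), with the defining Adipoq at 5.09 and 5.05 at Day_2, against 5.15 and 5.34 in Undiff, under the dim level in all 4 arrays. Of 10 macrophage markers none rose and 2 fell (20%, beside 15.2% of all genes), Cd14 (-0.39 ± 0.09) and Cd68 (-0.34 ± 0.08), and Ptprc and Csf1r were dim. Of 9 osteoblast markers 1 rose and 1 fell (11.1% each way), of 9 endothelial markers 1 rose (11.1%), and of 6 tenocyte markers none was called. Over all genes the shares were 14.8% higher and 15.2% lower. The osteoblast rise was not called without Day_2 replicate 1 or Undiff replicate 2, the osteoblast fall not without Undiff replicate 1, and the endothelial rise not without any 1 of the 4 arrays. Among 18 genes that mark reserve or satellite cells, which stay undifferentiated beside myotubes, 7 rose (38.9%) and 1 fell (5.56%). The lowest difference among these 18 genes was -0.67. Cd34 read 10.54 and 10.36 log2 at Day_2, against 8.81 and 8.66 in Undiff (1.71 ± 0.10), and Vcam1 rose by 1.07 (± 0.06). Pax7 (0.04), Spry1 (0.17) and Calcr (-0.07), markers of the same reserve or satellite cells, were not called. What part such cells have in the rises described above was not tested.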

How the data were processed

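Labelled cRNA from total RNA of C2C12 cells was hybridised to Affymetrix arrays, per the labels' protocols. The values are log2 expression values that the authors made with RMA and compared with limma, per the submitters' processing notes (array model, versions and build: not given in the sources used here). In the deposited time-course sheet there is 1 transcript cluster per gene symbol, and its values equal those of the deposited value table to within 1.78e-15. In the sheet 23 symbols had been turned into dates, and the gene name was used for these; 23 cells of 1 siMyolinc.3 array held a date serial and were treated as missing. There were 0 columns of per-sample values left unused. The RefSeq table (GRCm38.p6, used for names) lists 17433 symbols as current, 2024 as older names and 736 not at all.

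All 12 arrays of the time-course set entered limma 3.58.1 (R 4.3.3), with 1 coefficient per group, so that groups share an estimate of the spread, and Benjamini-Hochberg adjustment over 20193 genes. The fit was tested on simulated data. Precision is set by the 2 arrays a group, with 0.0801 as the median standard error of the log2 differences. Replicate numbers did not pair the samples: the deviations of Day_2 and Undiff replicates correlated at -0.101. The members, gene lists and tests were chosen with earlier results of these data known. Genes were named from the 40 largest rises and 40 largest falls among called genes whose arrays do not overlap, up to 8 called members of each list in each direction, the members of the regulator, Id, fusion, myosin and marker lists, and Filip1. Not all of these are named, and which ones are, as well as other list members given as not called, was chosen with their values known. Lists were described by counts and medians with no set test. Tardbp and Myolinc were not analysed here. The alternatives were other array sets, centring, filters, variance models, blocks and leaving out each array.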

Additional observations from a re-analysis of the deposited data

How the results depend on the processing

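All 15 alternative settings were compared with 6043 genes called, and none of the called genes among the 286 with printed values reversed. The count was 5904 with the replicate number as a block and 5998 with the Undiff numbers crossed, a pairing added after seeing the data. Leaving out 1 array gave 4432 to 5040 called genes, with 2170 to 2598 higher, 2262 to 2496 lower and 529 to 601 changed by at least 1 log2. The other settings gave 5924 to 6989 genes on the sheet, and 7515 of 35556 clusters of the whole value table. Of the 243 called genes with printed values 230 kept the call in each setting that gave them a value and 13 lost it under at least 1; 25 of the printed genes had no value with dim genes left out. Where leaving out a single array ended a call, that array stands beside the gene, and the cause was not tested. Another 5 genes not called were called under at least 1 setting. Of 126 counts of list members 39 moved by over 1.5 times under at least 1 setting. Dim was set by the mean over all 12 arrays, so that a dim cluster can lie above the dim level in 1 group. Mir491 did so at Day_2, at 8.05 and 7.98 log2. Where a dim cluster reads near the lowest levels of the arrays, that limits what can be seen.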
